A study of Homo sapiens with 4 samples.

Results

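ATF3, ATF4, ATF5 and ATF6 are transcription factors of the basic leucine zipper (bZIP) family, and ASNS, AARS and ADM2 are genes that respond to ATF4 in the amino acid response. These 7 genes were taken by name from 2864 genes with values in an alphabetical part of the deposited gene list. The set was chosen by its counts and TPM in these same libraries, so the values describe the genes and no test is given. RNA of A375 cells, a human BRAF-mutant melanoma line, was sequenced in 4 libraries, with 1 library per condition. They were untreated parental cells (A375P), the vemurafenib-resistant strain kept under a rising dose of the drug (A375R), cells given the solvent DMSO for 48 h (A375+DMSO) and cells given vemurafenib at 2 μM for 48 h (A375+VEM). Vemurafenib inhibits the mutant BRAF kinase. All cells were labelled wild type for genotype and grew in the same medium with serum. The labels do not give the dose that A375R received at harvest, nor whether the strain is a single clone.

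In the amino acid response, a lack of amino acids or stress in the endoplasmic reticulum (ER) leads to phosphorylation of the initiation factor eIF2. Most protein synthesis then falls, while the ATF4 mRNA is translated more through short reading frames in its leader. ATF4 binds C/EBP-ATF response elements and raises genes for amino acid synthesis, uptake and tRNA charging. ATF3 and ATF5 are also induced in this response, whereas ATF6 is an ER membrane protein that is cut under ER stress and forms a separate arm of the unfolded protein response. Since ATF4 is controlled largely by translation, its mRNA level is not a measure of its protein.

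The authors gave for each gene a read count and a TPM, in which the count is corrected for the length of the gene and for the size of the library. Counts over the genes of the table summed to between 1891215 and 2054277 per library, which covers only some of each library's reads. A gene was called higher or lower when its ratio of (TPM + 0.1) passed 1.5-fold, provided that the TPM reached 1 in either library. Log2 ratios are on that scale, where changes of genes with low levels come out too small, and folds are ratios of TPM without the 0.1. Intervals are exact 95% intervals on the reads (Clopper-Pearson) and cover counting error only, so they compare libraries and not conditions. Since there was 1 library per condition, no ratio has a replicate check. In RNA from a whole culture, fewer cells that express a gene and less RNA of it per cell cannot be told apart.

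After 48 h of vemurafenib, 4 of the 7 genes were lower in A375+VEM than in A375+DMSO, and none was higher. ADM2 was 22.3-fold lower, ASNS 18.9-fold lower, AARS 3.38-fold lower and ATF4 1.95-fold lower. Over all 1784 genes compared in this pair, 19.7% were below 1.5-fold and 26.5% above it. The median log2 ratio was -0.97 over the 7 genes and 0.11 over all genes. In A375R against A375P, 1 of the 7 genes was lower, ATF5, and none was higher, against 17.5% lower and 26.8% higher of 1689 genes. There the median log2 ratio was 0.11 over the 7 genes and 0.10 over all genes.

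ASNS encodes asparagine synthetase, which makes asparagine from aspartate and glutamine. It lies at chr7:97481429-97501854 on the minus strand in the authors' table, for which the submitters' processing notes name hg19. ASNS had 458 reads in A375+VEM against 8711 in A375+DMSO, and 7645 in A375R against 5826 in A375P. The TPM was 22.8 and 431 in the first pair and 391 and 269 in the second. The level in A375+VEM stood far below those of the other libraries, which lay within 1.60-fold of each other. The ratio of A375+DMSO to A375+VEM was 18.9 (95% interval 17.2 to 20.8), and that of A375P to A375+VEM was 11.8 (10.7 to 13.0). ASNS was thus lower whichever library without vemurafenib served as the control. In A375R the level was 1.45-fold that of A375P (1.40 to 1.503), just inside the 1.5-fold limit, and it was lower than in A375+DMSO, at a ratio of 0.907 (0.879 to 0.935). A375+DMSO itself was 1.60-fold above A375P (1.55 to 1.66). ASNS was the 1 gene of the 7 that passed 1.5-fold in that comparison of the 2 libraries without drug, and none of the 7 was lower there, where 26.8% of 1720 genes were higher and 18.9% lower.

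ADM2 encodes adrenomedullin 2, a secreted peptide also called intermedin that relaxes blood vessels. Its position in the table is chr22:50920153-50924866 on the plus strand. ADM2 had 53 reads in A375+VEM against 1190 in A375+DMSO, and 1345 in A375R against 1199 in A375P. The TPM was 1.66 and 36.9 in the first pair and 43.1 and 34.7 in the second. It was thus close to even in the libraries other than A375+VEM, and the difference between A375P and A375+DMSO was within counting error (ratio 1.06, 0.981 to 1.15). A375+DMSO was 22.3-fold above A375+VEM (16.9 to 29.9). A375R was 1.24-fold above A375P (1.15 to 1.34) and 1.17-fold above A375+DMSO (1.08 to 1.26), so A375R held the highest level of ADM2, by a margin under 1.5-fold.

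AARS encodes the cytosolic alanyl-tRNA synthetase, which loads alanine on its tRNA. It lies at chr16:70286297-70323412 on the minus strand in the table. AARS had 4646 reads in A375+VEM against 15825 in A375+DMSO, and 14101 in A375R against 13942 in A375P. The TPM was 175 and 592 in the first pair and 545 and 486 in the second. The order of the libraries was that of ASNS, and each step in it was larger than counting error. The fall from A375+DMSO to A375+VEM was 3.38-fold (3.27 to 3.50) and that from A375P was 2.78-fold (2.69 to 2.88). A375R differed by less, at 1.12-fold above A375P (1.09 to 1.15) and at 0.920 of A375+DMSO (0.900 to 0.942).

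**Figure D1:**
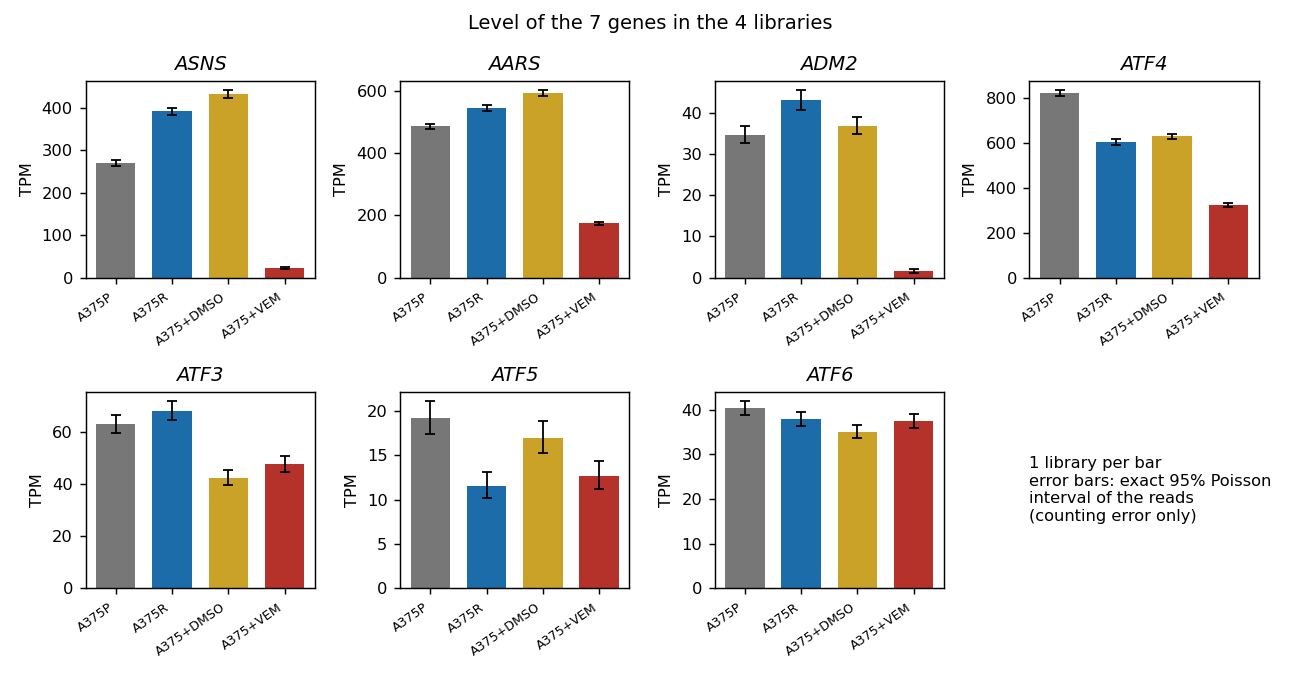
Level of each of the 7 genes in TPM (vertical axis, from 0) in the 4 libraries, 1 bar per library, with the exact 95% Poisson interval of its reads. ASNS, AARS and ADM2 were lowest in A375+VEM, at 22.8, 175 and 1.66 TPM, while ATF6 stayed between 35.1 and 40.3 TPM.

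ATF4 was the most abundant of the 7 genes in each library in TPM. It lies at chr22:39916564-39918691 on the plus strand and had 5175 reads in A375+VEM against 10175 in A375+DMSO, and 9466 in A375R against 14219 in A375P. The TPM was 322 and 628 in the first pair and 603 and 819 in the second, so A375P was highest and A375+VEM lowest, with A375R and A375+DMSO close together between them. A375+VEM was at 0.512 of A375+DMSO (0.495 to 0.530), a fall past 1.5-fold but short of 2-fold. A375R was at 0.737 of A375P (0.718 to 0.756) and at 0.961 of A375+DMSO (0.934 to 0.988), both within 1.5-fold. The fall of ATF4 in A375+VEM was smaller than those of the 3 response genes.

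ATF5, a factor whose gene is induced by ATF4, was the least abundant of the 4 ATF genes in each library. It lies at chr19:50431959-50437193 on the plus strand. ATF5 had 262 reads in A375+VEM against 353 in A375+DMSO, and 233 in A375R against 428 in A375P. The TPM was 12.7 and 17.0 in the first pair and 11.6 and 19.2 in the second. The 2 libraries without drug were above the 2 with it. A375R was at 0.603 of A375P (0.512 to 0.709), which is the 1 fall past 1.5-fold in that pair, and A375+VEM was at 0.747 of A375+DMSO (0.635 to 0.879). Against A375+DMSO, A375R was at 0.682 (0.575 to 0.807), inside the limit. The difference between A375P and A375+DMSO was within counting error (ratio of A375+DMSO to A375P 0.884, 0.766 to 1.02), as was that between A375+VEM and A375R, at an interval of 0.915 to 1.31.

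ATF3, a factor that stress and growth signals induce within hours, did not follow the 3 response genes. It lies at chr1:212738676-212794119 on the plus strand. ATF3 had 962 reads in A375+VEM against 865 in A375+DMSO, and 1344 in A375R against 1375 in A375P. The TPM was 47.6 and 42.5 in the first pair and 68.2 and 63.0 in the second. The level was higher in A375P and A375R than in the 2 libraries of the 48 h experiment. A375+VEM was 1.12-fold above A375+DMSO (1.02 to 1.23) and A375R 1.08-fold above A375P (1.00 to 1.17), so within each pair the difference was small. Against A375+DMSO, A375R was 1.60-fold higher (1.47 to 1.75), and ATF3 was the 1 gene of the 7 past 1.5-fold in that comparison, with none lower. Of 1702 genes compared there, 10.5% were higher and 9.99% lower. ATF3 in A375+DMSO was at 0.674 of A375P (0.619 to 0.735), just short of 1.5-fold.

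ATF6 varied least of the 7 genes. It lies at chr1:161736034-161933860 on the plus strand. ATF6 had 2249 reads in A375+VEM against 2116 in A375+DMSO, and 2217 in A375R against 2608 in A375P. The TPM was 37.5 and 35.1 in the first pair and 38.0 and 40.3 in the second, a 1.15-fold spread from the lowest to the highest. The difference between A375R and A375+VEM was within counting error (ratio 1.01, 0.953 to 1.07). A375+VEM was at 1.07 of A375+DMSO (1.01 to 1.14) and A375R at 0.941 of A375P (0.889 to 0.996). By comparison, the spread from the lowest to the highest library was 26.0-fold for ADM2, 18.9-fold for ASNS, 3.38-fold for AARS and 2.55-fold for ATF4.

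**Figure D2:**
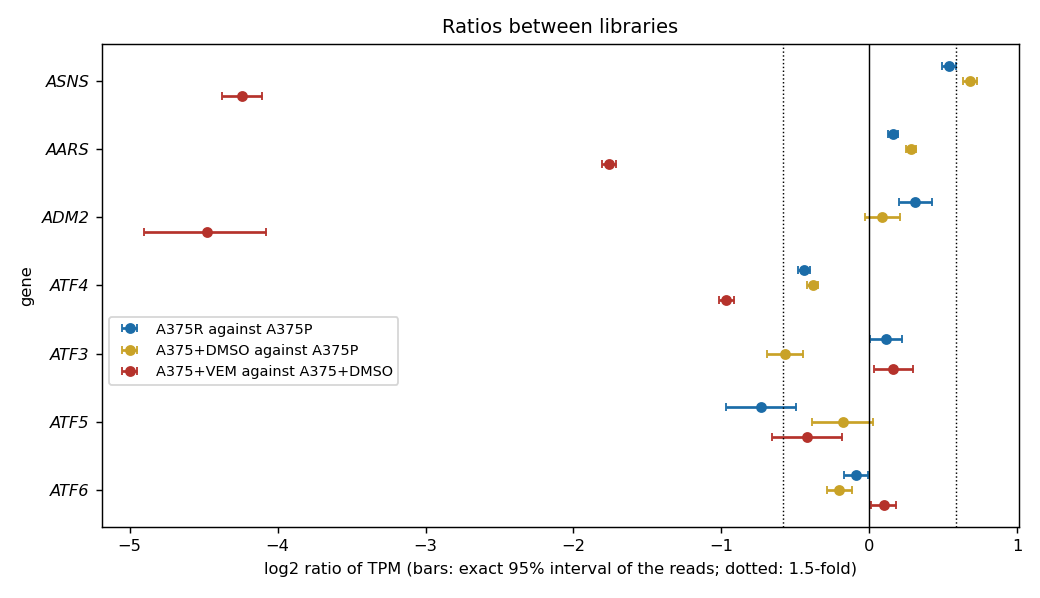
Log2 ratio of TPM between libraries (horizontal axis) for each gene (vertical axis), with exact 95% intervals of the reads as bars and dotted lines at 1.5-fold. The 3 response genes lay far to the left in A375+VEM against A375+DMSO, whereas in A375R against A375P every gene but ATF5 lay within 1.5-fold.

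With A375P as the control in place of A375+DMSO, 5 of the 7 genes were lower in A375+VEM and none was higher. They were ADM2 at a log2 ratio of -4.31, ASNS at -3.55, AARS at -1.47, ATF4 at -1.35 and ATF5 at -0.59. ATF5 lay at the limit, and with a pseudocount of 1 it was at -0.56 and inside it, which left 4 genes. Of 1782 genes in that comparison 25.3% were lower and 36.9% higher, and the median over all genes was 0.15. Both comparisons of A375+VEM share that library. Among the genes compared with A375+DMSO, ordered from the lowest log2 ratio in A375+VEM, ADM2 was at place 9, ASNS at place 11, AARS at place 97 and ATF4 at place 210 of 1784.

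**Figure D3:**
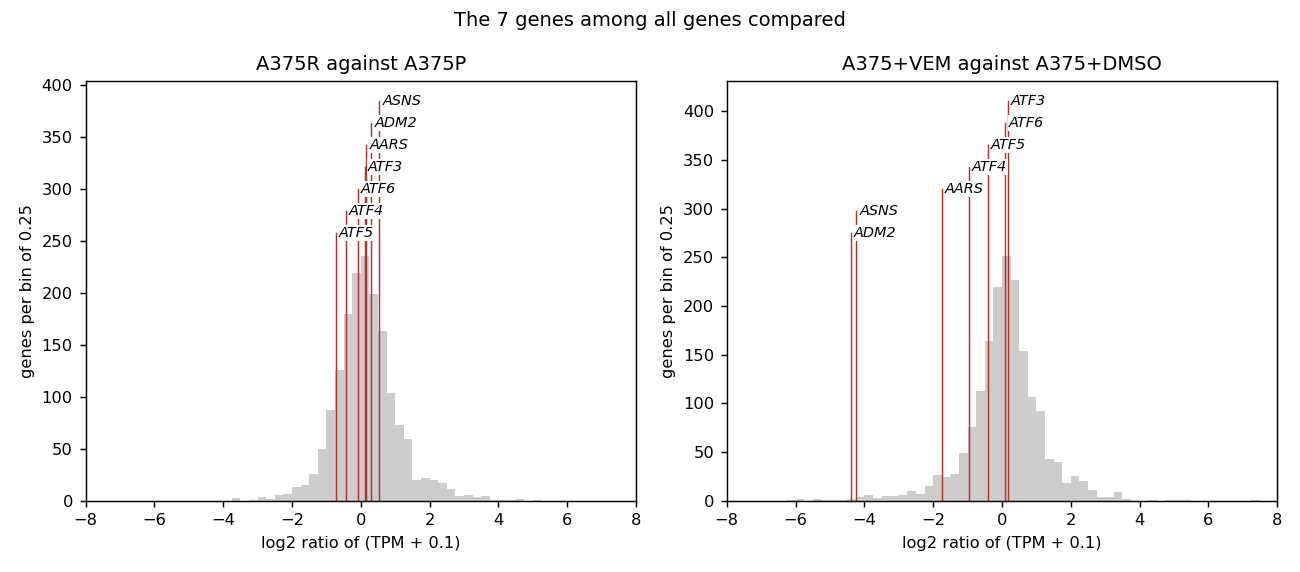
Number of genes (vertical axis) by log2 ratio of (TPM + 0.1) in bins of 0.25 (horizontal axis), for 1689 genes in A375R against A375P and 1784 in A375+VEM against A375+DMSO, with the 7 genes as lines. ADM2 at -4.40 and ASNS at -4.23 stood in the lower tail in A375+VEM, and all 7 genes lay between -0.73 and 0.54 in A375R.

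A ratio of 2 genes within a library does not depend on how libraries are scaled to each other, so the levels were also set against ATF4. The TPM of ASNS was 7.10% of that of ATF4 in A375+VEM against 68.7% in A375+DMSO, and 64.8% in A375R against 32.9% in A375P. For ADM2 these shares were 0.515% against 5.88% and 7.14% against 4.24%, and for AARS 54.4% against 94.3% and 90.3% against 59.4%. From A375+DMSO to A375+VEM the share thus fell 9.67-fold for ASNS, 11.4-fold for ADM2 and 1.73-fold for AARS. In A375R each of the 3 response genes was higher relative to ATF4 than in A375P, by 1.97-fold for ASNS, 1.69-fold for ADM2 and 1.52-fold for AARS. In A375+DMSO the same shares were 2.09-fold, 1.39-fold and 1.59-fold those of A375P, so the rise relative to ATF4 was also there without drug. ATF3, ATF5 and ATF6 went the other way in A375+VEM, where they were 2.19-fold, 1.46-fold and 2.09-fold higher relative to ATF4 than in A375+DMSO. ADM2 relative to ASNS was 7.25% in A375+VEM against 8.56% in A375+DMSO, and 11.0% in A375R against 12.9% in A375P, a narrow range beside that of each gene.

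**Figure D4:**
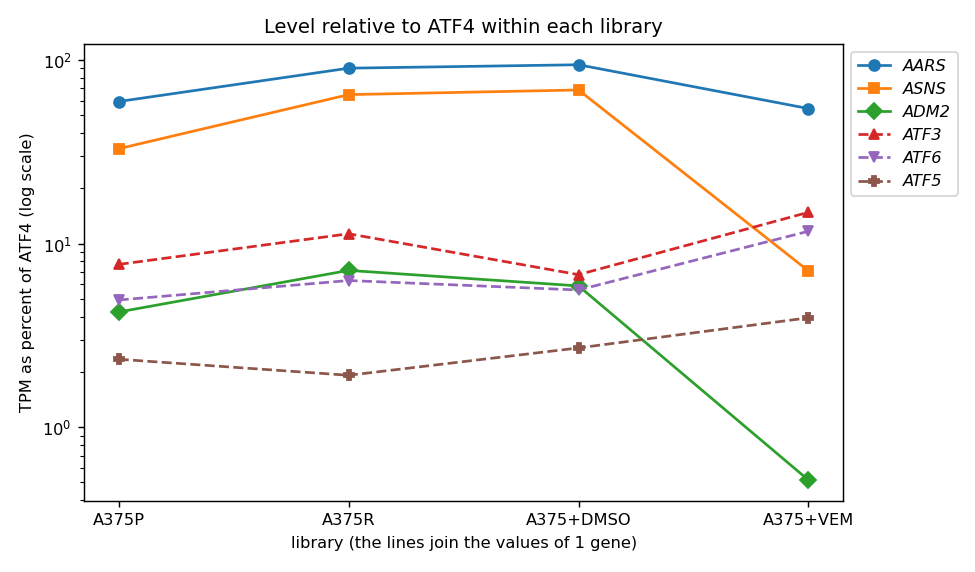
TPM of 6 genes as a percent of the TPM of ATF4 within the same library (vertical axis, log scale) in the 4 libraries (horizontal axis). In A375+VEM the value of ASNS was 7.10% and that of ADM2 0.515%, below 68.7% and 5.88% in A375+DMSO, while ATF3 was at 14.8% and 6.77%.

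Other known targets of ATF4 went in both directions in A375+VEM. Of 6 genes listed, 3 were lower than in A375+DMSO, 1 was higher, and the median log2 ratio was -0.68, beside 19.7% lower, 26.5% higher and a median of 0.11 over all genes. ALDH1L2, a mitochondrial enzyme of folate metabolism, had 2650 reads in A375+DMSO and 349 in A375+VEM, a log2 ratio of -2.89. BCAT1, which starts the breakdown of branched-chain amino acids, had 4238 and 633 reads and a log2 ratio of -2.72. ASS1, an enzyme of arginine synthesis, was at -1.24. These 3 enzymes moved in the direction of ASNS, whereas BCL2L11, which encodes the pro-apoptotic protein BIM, was at 1.63. ALDH18A1, which acts in proline synthesis, and BBC3, which encodes the pro-apoptotic protein PUMA, were within 1.5-fold in this pair. In A375R against A375P, ASS1 was higher, from 66 to 260 reads and a log2 ratio of 2.10, and BBC3 was lower at -0.90. Of all genes in that pair, 26.8% were higher and 17.5% lower. Against A375+DMSO none of the 6 genes passed 1.5-fold in A375R, where few of all genes did (10.5% higher and 9.99% lower), and A375+DMSO had 343 reads of ASS1 and 532 of BBC3.

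Relatives of AARS and the scaffolds of the cytosolic tRNA synthetase complex were a group of 4 genes. AARSD1, which removes wrongly loaded amino acids from alanine tRNA, was at a log2 ratio of -0.77 in A375+VEM against A375+DMSO. It was the 1 of the 4 past 1.5-fold there, beside 26.5% higher and 19.7% lower over all genes. The mitochondrial enzyme AARS2 was within 1.5-fold there, with 838 reads in A375+DMSO and 564 in A375+VEM. AIMP1 and AIMP2, the scaffolds, were lower in A375R than in A375P, at -0.69 and -0.95, and were also lower in A375+DMSO than in A375P. A list of 4 further genes held ASNSD1 and genes of asparagine and of glycoprotein breakdown. Of 3 that could be compared, AGA, a lysosomal enzyme that cuts asparagine from sugars, was higher in A375+VEM at 0.80 and none was lower. Over all genes in that pair, 26.5% were higher and 19.7% lower. ASNSD1 was at -0.23 and ASRGL1 at -0.07, both within the limit. ASRGL1, an asparaginase, was lower in A375R than in A375P at -0.59, and ASPG had 4 reads or fewer in each library. In A375R against A375P, 26.8% of all genes were higher and 17.5% lower.

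Of 7 autophagy genes known as targets of ATF4 or its partner CHOP, ATG7 was the 1 gene higher in A375+VEM against A375+DMSO, at a log2 ratio of 0.97. ATG3 and ATG12, which act with it in the conjugation step, were lower at -0.83 and -0.70. Of all genes in that pair, 26.5% were higher and 19.7% lower. In A375R against A375P, ATG10 alone of the 7 passed the limit, at 0.67, beside 26.8% higher and 17.5% lower over all genes. ATG10 was also higher in A375+DMSO than in A375P, at 0.80, and was at -0.13 in A375R against A375+DMSO. ATG12 was the 1 gene past the limit in that last comparison, at 1.03, where 10.5% of all genes were higher and 9.99% lower. Of 11 genes of the unfolded protein response and ER quality control, 4 were higher in A375+VEM and 2 lower, with a median of 0.27, beside 26.5% higher and 19.7% lower over all genes. ATP6V0D1, a subunit of the vacuolar proton pump, was at 1.27, ADD1, an actin-capping protein, at 0.77, ACADVL, an enzyme of fatty acid oxidation, at 0.75 and ATXN3, a deubiquitinase, at 0.59. BAG3, a co-chaperone, was at -0.81 and BFAR, an ER ubiquitin ligase, at -0.62. In A375R against A375P, ACADVL was higher at 1.33, and ATP6V0D1 at -1.14, BANF1 at -0.77, ARFGAP1 at -0.66 and AUP1 at -0.59 were lower. Over all genes in that pair, 26.8% were higher and 17.5% lower. In A375+DMSO against A375P, ACADVL was also higher at 1.44, and ATP6V0D1 at -1.02 and ARFGAP1 at -0.64 were lower. BANF1 and AUP1 were within the limit there, where 26.8% of all genes were higher and 18.9% lower. None of the 11 passed 1.5-fold in A375R against A375+DMSO, where 10.5% of all genes were higher and 9.99% lower.

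Among 9 other bZIP factors, BATF3, which pairs with JUN proteins, was higher in A375R than in A375P at a log2 ratio of 1.24 and lower in A375+VEM than in A375+DMSO at -1.92, on 67, 31, 12 and 48 reads in that order. It was also higher in A375+DMSO than in A375P, at 0.72. Of all genes, 26.8% were higher and 17.5% lower in A375R against A375P, and 26.5% and 19.7% in A375+VEM against A375+DMSO. No other of the 9 factors passed 1.5-fold in these 2 pairs, and BATF had at most 1 read per library. ATF1, ATF2 and ATF7, which bind cyclic AMP response elements, and ATF6B, the paralogue of ATF6, were thus within the limit in both pairs. Against A375+DMSO, ATF1 at 0.71, BACH1 at 0.63 and BATF2 at 0.62 were higher in A375R, 3 of 8 compared, and none was lower. Of all genes 10.5% were higher and 9.99% lower there. In A375+DMSO against A375P, ATF7 was also higher, at 0.69, and ATF1 at -0.91 and BATF2 at -0.95 were lower. There 26.8% of all genes were higher and 18.9% lower. ADM, the paralogue of ADM2, was lower in A375+VEM as well, at -2.08, but unlike ADM2 it was also lower in A375R than in A375P, at -2.28. ADM was likewise lower in A375+DMSO than in A375P, at -2.02, and A375R against A375+DMSO was within the limit at -0.25. It had 64 reads in A375+VEM against 276 in A375+DMSO, and 224 in A375R against 1208 in A375P. ADM5 had 35 to 59 reads per library and was higher in A375R than in A375P, at 0.63, and also in A375+DMSO than in A375P, at 0.82.

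**Figure D5:**
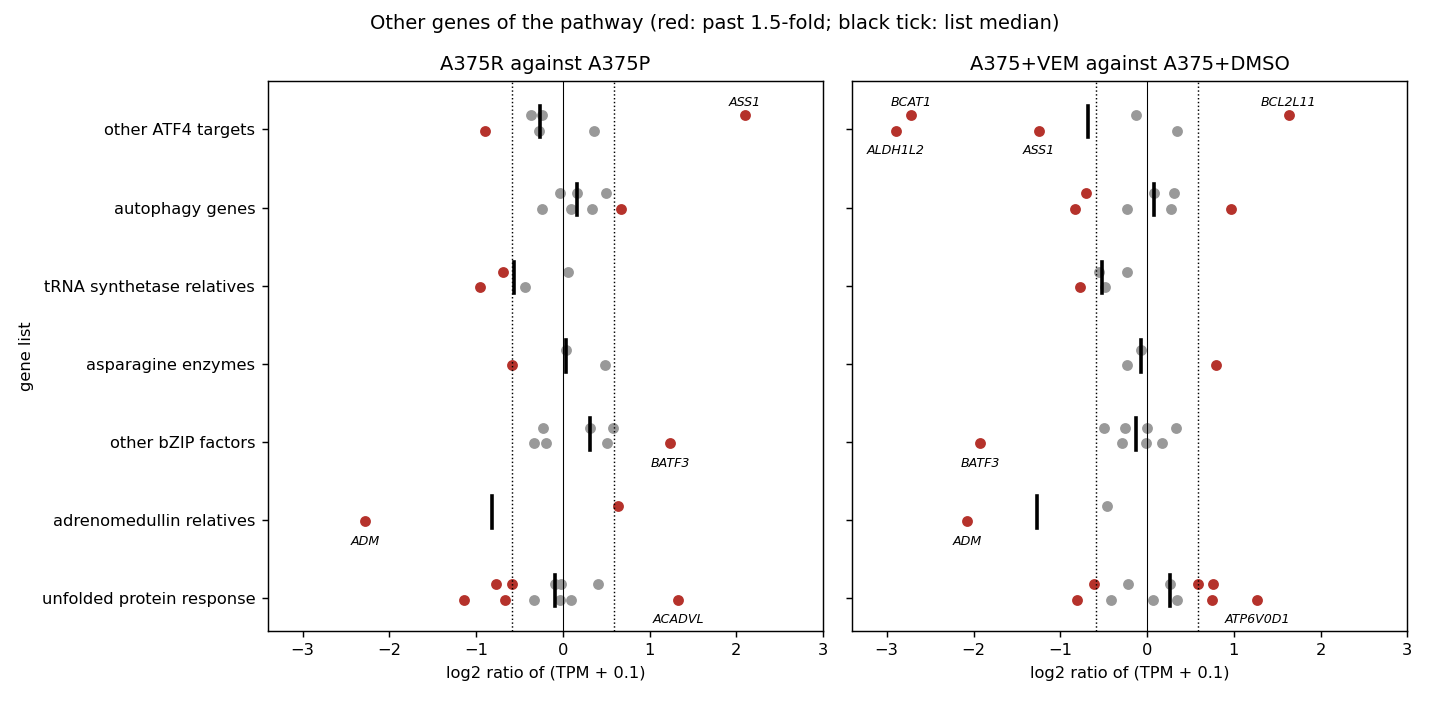
Log2 ratio of (TPM + 0.1) (horizontal axis) of each gene compared in 7 lists of related genes (vertical axis), 1 point per gene. Points are red where past 1.5-fold, the median of each list is a black tick, and names mark called genes beyond 1.2. ALDH1L2 and BCAT1 lay lowest among the other ATF4 targets in A375+VEM against A375+DMSO, at -2.89 and -2.72.

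The genes with the most similar course over the 4 libraries were sought among 1267 protein-coding genes whose mean TPM reached 5. Likeness was the root mean square difference of log2(TPM + 0.1) after the mean of each gene was subtracted, a description over 4 points. Nearest to ATF4 were BET1 at 0.073, AARSD1 at 0.093 and ANAPC1 at 0.094. Nearest to ASNS were ASF1B at 0.11, ARHGAP11A at 0.19 and AURKA at 0.20. AURKA, a mitotic kinase, had a TPM of 6.52 in A375+VEM against 91.3 in A375+DMSO, and of 80.5 in A375R against 56.7 in A375P. For ASF1B, a histone chaperone, these were 4.22, 78.4, 66.1 and 41.3. Their part in the result for ASNS was not tested. Nearest to ATF3 were BRAF at 0.075, ANKRA2 at 0.089 and ANKLE1 at 0.094. Among the 7 genes themselves, the closest pairs were ATF3 and ATF6 at 0.23, ATF5 and ATF6 at 0.29 and ADM2 and ASNS at 0.30. AARS was nearest to ATF4, at 0.35, and farther from ASNS, at 1.02, and from ADM2, at 1.23, than from any ATF gene.

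ASNS and ATF4 each have 4 processed or other pseudogenes in the table, and reads could be divided between copies. Pseudogenes of ASNS held 5 reads in A375+VEM (1.09% of the reads of ASNS) against 177 in A375+DMSO (2.03%), and 178 in A375R (2.33%) against 114 in A375P (1.96%). Those of ATF4 held between 11 and 27 reads per library, at most 0.265% of the reads of ATF4. ASNSP1 alone had 177 reads in A375+DMSO and 3 in A375+VEM, at a ratio of 0.017 (0.0035 to 0.051).

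A list for melanocytic cells held 7 genes, whose specificity to these cells was not tested. Of these genes, 5 had at least 32 reads in each library, whereas ABCB5 had at most 6 and BIRC7 between 1 and 18. The summed TPM of the 7 genes ran from 73.7 in A375+DMSO to 117 in A375R and A375+VEM. Of 6 that could be compared in A375+VEM against A375+DMSO, 5 were higher and none lower, with a median log2 ratio of 0.79. The 5 were ACP5, APOE, ASAH1, BCL2A1 and BIRC7. Over all genes, 26.5% were higher and 19.7% lower, with a median of 0.11. BIRC7 reached a TPM of 1 only in A375+VEM, on 18 reads against 9 in A375+DMSO. Its ratio of 2.01 was within counting error (0.859 to 5.09). Of 5 compared in A375R against A375P, BCL2A1 at 2.28 and APOE at 0.91 were higher and ASAH1 at -1.02 was lower. Of all genes in that pair, 26.8% were higher and 17.5% lower. Against A375+DMSO, BCL2A1 at 3.12 and BCAN at 0.84 were higher in A375R and none was lower, beside 10.5% and 9.99% of all genes. The TPM of BCL2A1 was 37.5 in A375R, against 4.24 in A375+DMSO and 7.67 in A375P. Of 10 markers of other cell types, C1QA was at 0 throughout and ADIPOQ, AIF1, C1QB, C1QC, BLK and BTK had at most 8 reads per library. ACTA2, ALB and APOA1 made up nearly all of their summed TPM, which ran from 83.6 in A375+DMSO to 167 in A375P. Their part in the results was not tested.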

How the data were processed

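Each of the 4 conditions of A375 cells had 1 RNA library, and groups follow the treatment labels. The authors deposited whole-number read counts and TPM per gene. The submitters' processing notes name hg19, HISAT, HISAT2, TopHat2 and Bowtie2 without roles. The counting program and use of strand are not given in the sources used here. In each library the ratio of TPM to count per base was a single constant. The table holds 2864 genes with values, and 1 incomplete row was left out.

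The members and gene lists were chosen with earlier results of these data known. Ratios were taken of (TPM + 0.1), with a limit of 1.5-fold, for genes whose TPM reached 1 in either library. Genes named are the members, their pseudogenes, list members past 1.5-fold in 1 of the 2 pairs of the study, markers, and the 3 nearest profiles to ATF4, ASNS and ATF3. ALDH18A1, AARS2, ASPG, ASNSD1, the other bZIP factors within the limit and BBC3 were named after their values were seen. Alternatives were pseudocounts of 1 and 0.01, no filter, a filter at a TPM of 5, a 2-fold limit and a median ratio set to 1. Promoter sequences and their motifs are not reported here. The ratio step was tested on simulated data. Calculations used scipy 1.17.1, numpy 2.4.6 and pandas 2.3.3 in Python 3.11.15, and plots matplotlib 3.10.9.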

Additional observations from a re-analysis of the deposited data

Results flagged for a closer look

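For 4 of the 7 genes the ratio lay on opposite sides of 1 in the pair of A375R and A375P and in the pair of A375+VEM and A375+DMSO, with neither counting interval reaching 1. This difference was not tested, since each pair has 1 library per condition. The share of all genes that meet this rule is not given, so the count is not shown to be particular to these 7 genes. With many reads, a counting interval can leave out 1 for a small difference. ASNS was at a log2 ratio of 0.54 in A375R and of -4.23 in A375+VEM. ADM2 was at 0.31 and -4.40, and AARS at 0.16 and -1.76. ATF6 was at -0.087 and 0.098, both far inside 1.5-fold, and its ratio in A375+VEM changed sign, to -0.0075, when the libraries were scaled to a median ratio of 1. With A375+DMSO as the control of A375R, ASNS and AARS were at -0.14 and -0.12, and ATF6 was at 0.11, so for these 3 genes the opposite direction depends on the control, while ADM2 was at 0.22.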

How the results depend on the processing

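Of the counts of members past the limit, 56 of 60 values under the alternatives were within 1.5 times the reported count. No filter and a filter at a TPM of 5 could not change these counts, as each member reached that TPM in every pair. A reported count of 0 could be matched only by 0. At a 2-fold limit, which is stricter by construction, 0 members were lower in A375R against A375P, 0 higher in A375+DMSO against A375P and 0 higher in A375R against A375+DMSO, in place of 1 each. That limit also left 3 members lower in A375+VEM against A375+DMSO in place of 4, without ATF4, and 4 in A375+VEM against A375P in place of 5, without ATF5. Scaling to a median ratio of 1 made 1 member lower in A375+DMSO against A375P in place of 0, ATF3. That scaling moved the log2 ratios by 0.15 in A375+VEM against A375P, by 0.11 in A375+VEM against A375+DMSO and by 0.10 in A375R against A375P. The same pseudocount on both levels cannot change the direction of a ratio, and the scaling moved log2 ratios by less than the 1.5-fold limit. The direction of a member past that limit was therefore fixed in advance under these settings. With a pseudocount of 1, ADM2 was at -3.84 in A375+VEM against A375+DMSO. Of all genes, the 2-fold limit called 248 higher and 127 lower in A375R against A375P, in place of 452 and 296. It called 273 and 198 in A375+VEM against A375+DMSO, in place of 473 and 352, and 286 and 161 in A375+DMSO against A375P, in place of 461 and 325. In A375R against A375+DMSO it called 72 and 75 in place of 179 and 170, no filter called 388 and 430, and a TPM of at least 5 called 76 lower. In A375+VEM against A375P the 2-fold limit called 274 lower in place of 450. Without the filter 960 genes were higher and 624 lower there in place of 657 and 450, and 702 and 535, 746 and 536, and 735 and 531 in the first 3 comparisons, as more genes were admitted.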
